A study of Mus musculus with 48 samples.

Results

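The comparison described here set the livers of 6 male mice fed a high-fat diet with added cholesterol and fructose (HFCF) against those of 6 male mice kept on a high-fat (HF) diet, all of them labelled as hepatocyte knockouts of Pparg. These 12 libraries are all those the labels place in the 2 groups, of 48 in the series. All mice carried a floxed Pparg gene. After 16 weeks on diet AAV8-TBG-Cre was given to both groups. This is an adeno-associated virus whose TBG promoter drives the Cre recombinase in hepatocytes, so the virus and the intended deletion were common to both diets. The HF group ate the HF diet for 34 weeks and is labelled as having liver steatosis. The HFCF group ate the HF diet for 18 weeks and the HFCF diet for the following 16 weeks, and is labelled as having non-alcoholic steatohepatitis. The mice were adults; strain and exact age are not given in the sources used here. RNA came from whole liver, extracted with Trizol, so it held every cell type of the organ. Male controls with the same 2 diets (AAV8-TBG-null, 6 livers per diet) and female labelled knockouts (4 livers per diet) are used below only to show where the diet effect differed.

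Cholesterol reaching hepatocytes from the diet keeps the transcription factor SREBP2 in its membrane-bound, inactive form, and the genes of cholesterol synthesis and uptake that it drives are then transcribed less. Oxidised sterols activate the liver X receptors, which raise genes of sterol efflux and of fatty acid desaturation. PPARG, the product of Pparg, is a nuclear receptor that in fatty hepatocytes drives genes of lipid uptake and of the lipid droplet. In steatohepatitis, macrophages that take up lipid accumulate and hepatic stellate cells turn into matrix-producing myofibroblasts.

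SREBP2 binds sterol regulatory elements in the promoters of its targets. The core TCACNCCAC was searched on both strands in the 250 bases before the RefSeq transcription start sites (GRCm38.p6). It was found in 1 of 15 cholesterol synthesis genes with an entry (20 listed), in 0 of 9 sterol sensing and uptake genes with an entry (15 listed), and in 1.22% of 27025 genes of the table. The gene with the match was Hmgcs1 (HMG-CoA synthase, an early step of cholesterol synthesis). Its window is shown beside that of Mvk (mevalonate kinase, a later step), which held no match, because both genes fell by a similar amount on HFCF: log2 −1.09 ± 0.288 (SE) for Hmgcs1 and −1.12 for Mvk. Both are on the forward strand, at chr13:119690101-119690350 and chr5:114444019-114444268. Capitals mark the match, which begins 137 bases before the start site.
Hmgcs1: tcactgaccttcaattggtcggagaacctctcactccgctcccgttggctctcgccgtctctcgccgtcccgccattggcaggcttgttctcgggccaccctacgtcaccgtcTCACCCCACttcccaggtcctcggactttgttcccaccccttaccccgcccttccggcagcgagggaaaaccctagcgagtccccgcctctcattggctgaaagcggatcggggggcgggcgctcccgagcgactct
Mvk: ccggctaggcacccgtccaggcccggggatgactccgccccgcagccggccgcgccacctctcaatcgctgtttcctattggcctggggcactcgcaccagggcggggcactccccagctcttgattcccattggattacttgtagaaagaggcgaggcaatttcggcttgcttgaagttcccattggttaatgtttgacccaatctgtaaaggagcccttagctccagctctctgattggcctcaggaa
A match of letters is a description and not a measured binding site, and its absence says only that these letters are not in this window.

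Pparg itself (ENSMUSG00000000440, GRCm38 chromosome 6, 115360951 to 115490399, forward strand) bears on the labels and is given before other genes. Its lowest, median and highest levels were 18.2, 42.6 and 62.8 CPM (reads scaled to a common library size, given for a fixed total of reads) in the HF labelled knockouts and 48.7, 56.6 and 65.0 CPM in the HFCF labelled knockouts. The ranges overlapped through HF replicate 4, the highest of its group, and HF replicate 6 was the lowest of the 12. The male controls lay between 28.3 and 38.8 CPM on HF and between 26.3 and 39.5 CPM on HFCF. Of the 12 labelled knockout libraries 1, HF replicate 6, was below the range of the controls. Each HFCF labelled knockout library was above the highest control, and so was the median of the HF labelled knockouts. Counts over the whole gene do not separate the floxed exons from the rest, so they do not check the deletion, and the term labelled knockout is used throughout. The diet difference of Pparg was log2 0.45 ± 0.191 (SE; edgeR adjusted p = 0.0685). A 2-sided exact permutation test of mean log2 CPM over the same 12 libraries gave a difference of 0.53 and p = 0.0238, where the smallest p possible is 0.00216. Pparg passed the threshold in 2 of 12 fits that left out 1 library (HF replicate 4 or HF replicate 6), and also with DESeq2's Wald test, with a replicate block, with total-count scaling and with the male controls in the same fit.

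Between 15569777 and 20934121 reads per library fell on genes. The first principal component carried 56.0% of the variance of the 12 libraries and separated the diets, with HF libraries between −33.6 and −16.8 and HFCF libraries between 10.9 and 40.7. Some libraries stood apart. HF replicate 6 had the highest Hsd3b5 (148 CPM against at most 1.65 in the other 11) and Slco1a1. HF replicates 3, 4 and 5 held Hbb-bs, a haemoglobin transcript, at 266 to 359 CPM against 45.5 to 81.5 in the other 9. HF replicate 4 was the highest of the 12 for Isg15 and Ifit1. HFCF replicate 6 lay nearest to the HF libraries and had the highest Scd1 and Elovl6. Among the controls, HFCF replicate 1 lay at −10.4 on the first component of the 24 male libraries, within the range of the HF controls (−20.6 to 0.9), whereas the other HFCF controls lay between 26.7 and 39.2.

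**Figure D1:**
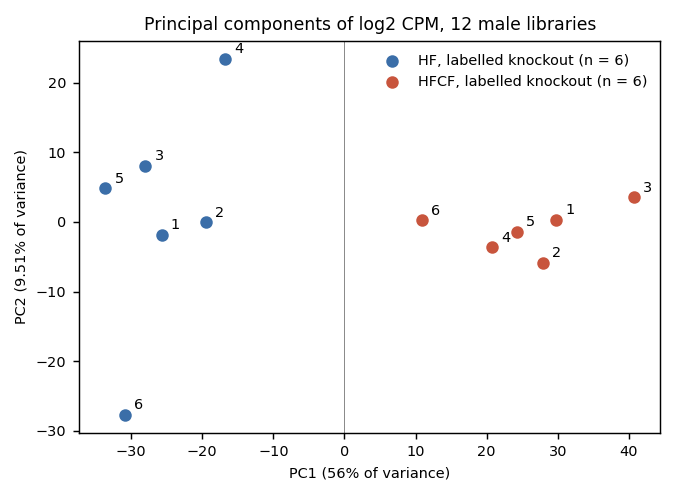
The first 2 principal components of log2 CPM over 14314 genes in the 12 male labelled knockout libraries, with the replicate number beside each point. The HF libraries lie left of 0 on the first component and the HFCF libraries right of it, and HF replicates 4 and 6 lie farthest apart on the second.

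Of 14314 genes tested with edgeR's quasi-likelihood test, 5962 (41.7%) differed between the diets at an adjusted p under 0.05. Of these, 3095 were higher on HFCF (21.6% of genes tested) and 2867 lower (20%). Counts of list members below can be set beside these 2 shares. A fold of at least 2 (an absolute log2 of at least 1) was reached by 1101 of the higher and 164 of the lower genes. Levels are relative to the scaling of the libraries. The trimmed-mean (TMM) scaling factors of the 2 diets did not overlap, at 0.89 to 0.94 on HF and 0.99 to 1.10 on HFCF. Scaling by total counts instead shifted the median log2 difference of all genes from −0.02 to 0.18 and called 5493 genes higher and 966 lower, so differences of about 0.2 on the log2 scale have no fixed direction here. List counts given below with total-count scaling are to be set beside these 5493 and 966 of the 14314 genes. Leaving out 1 library at a time gave between 5105 calls (without HFCF replicate 3) and 6036 (without HF replicate 4). In whole liver, fewer cells of a type and less RNA per cell cannot be told apart.

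**Figure D2:**
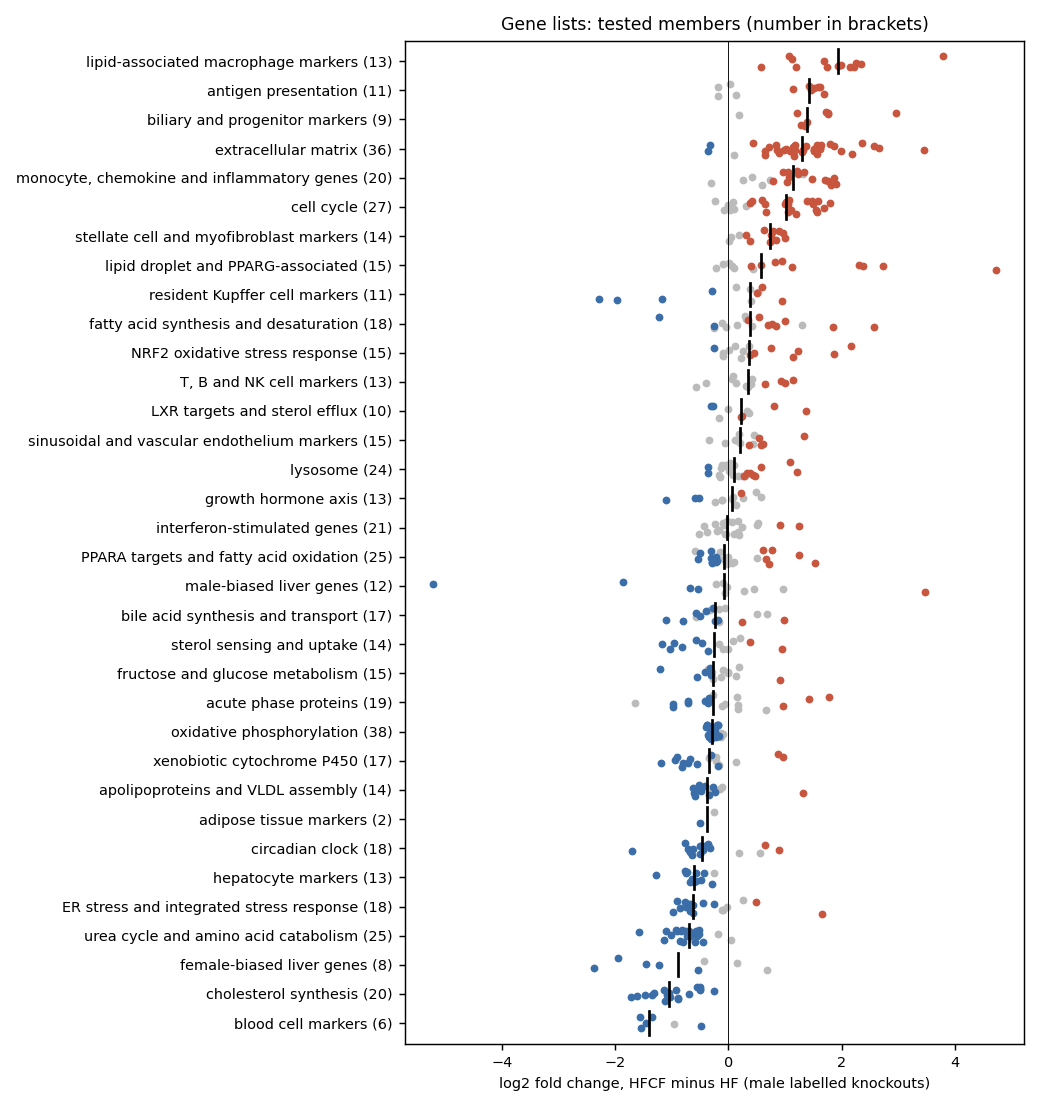
Log2 difference between HFCF and HF of each tested member of 34 gene lists in the male labelled knockouts, with red for called higher, blue for called lower, grey for not called and a black bar for the list's median. Lipid-associated macrophage markers have a median of 1.94 and cholesterol synthesis genes one of −1.04, and a gene on 2 lists appears in both.

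Cholesterol synthesis was lower on HFCF at each measured step. All 20 listed enzymes were tested, and 20 fell, with a median log2 of −1.04 against −0.02 over all genes. Msmo1 (ENSMUSG00000031604, chromosome 8, 64718139 to 64733792, reverse strand), a sterol demethylase, lay at 140, 203 and 288 CPM (lowest, median and highest) on HF and at 44.8, 56.97 and 95.7 CPM on HFCF. No HFCF library reached the lowest HF library, and the difference was −1.73 ± 0.209 (SE; edgeR adjusted p = 1.78e-05). Idi1, which isomerises the isoprenoid building block, was likewise without overlap, at 64.8 to 104 CPM on HF and 13.5 to 50.1 on HFCF. Sqle, the squalene epoxidase, fell by 1.48 (SE 0.341, edgeR adjusted p = 0.0028), but its ranges of 64.9 to 156 and 17.6 to 84.0 CPM overlapped through HFCF replicate 3, the highest of its group. With total-count scaling 15 of the 20 were still called lower and 0 higher.

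The genes that sense and take up sterols moved in both directions. Of 14 tested, 7 fell and 2 rose. Insig1, a SREBP2 target that retains SREBPs in the membrane, lay at 347, 476 and 577 CPM on HF and at 113, 231 and 337 CPM on HFCF. Each HFCF library was below each HF library, with a difference of −1.02 ± 0.199 (SE; edgeR adjusted p = 0.000807). Stard4, a sterol carrier, fell by 0.96, from 178 to 192 CPM over the HF libraries to 67.5 to 125 CPM over the HFCF libraries. Soat1, which esterifies cholesterol for storage, rose from 8.77 ± 0.402 to 16.9 ± 2.52 CPM (log2 0.95, edgeR adjusted p = 5.48e-06) with no overlap. Insig2 was the other gene that rose. With total-count scaling 6 of the 14 fell and 5 rose.

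Among 10 genes of the liver X receptors and sterol efflux, 4 rose and 2 fell. Abcg1, a sterol exporter strong in macrophages, rose by log2 1.36 ± 0.116 (SE; edgeR adjusted p = 1.09e-06), from 6.44 to 12.03 CPM over the HF libraries to 21.7 to 27.6 CPM over the HFCF libraries. Abca1, which loads cholesterol onto apolipoprotein A1, rose by only 0.23, and this call was lost in 6 of 12 fits that left out 1 library. The canalicular sterol pump gene Abcg5 was at 96.6 ± 21.6 and 124 ± 45.7 CPM (edgeR adjusted p = 0.206). Abcg5 overlaps Abcg8, and Pltp overlaps Ctsa. The libraries were not strand specific, so the strand of a read in the overlaps does not say which gene it came from. Nr1h3, which encodes LXR alpha, fell by 0.31 (−0.11 and not called with total-count scaling).

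Bile acid synthesis showed opposite movements at Cyp7a1 and Cyp7b1. Cyp7a1, the rate-limiting enzyme of the classical pathway, rose from 90.6, 172 and 215 CPM (lowest, median and highest) on HF to 164, 305 and 426 CPM on HFCF. The ranges overlapped and the difference was 0.97 ± 0.216 (SE; edgeR adjusted p = 0.00213). Cyp7b1, of the alternative pathway, fell by 1.11, from 53.9 to 144 CPM on HF to 30.4 to 52.0 on HFCF, with no overlap. Slc10a1, which takes bile acids up from blood, fell by 0.80, with HFCF replicate 6 (520 CPM) inside the HF range. In all, 2 of 17 bile acid genes rose and 8 fell, and with total-count scaling 3 rose and 4 fell.

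**Figure D3:**
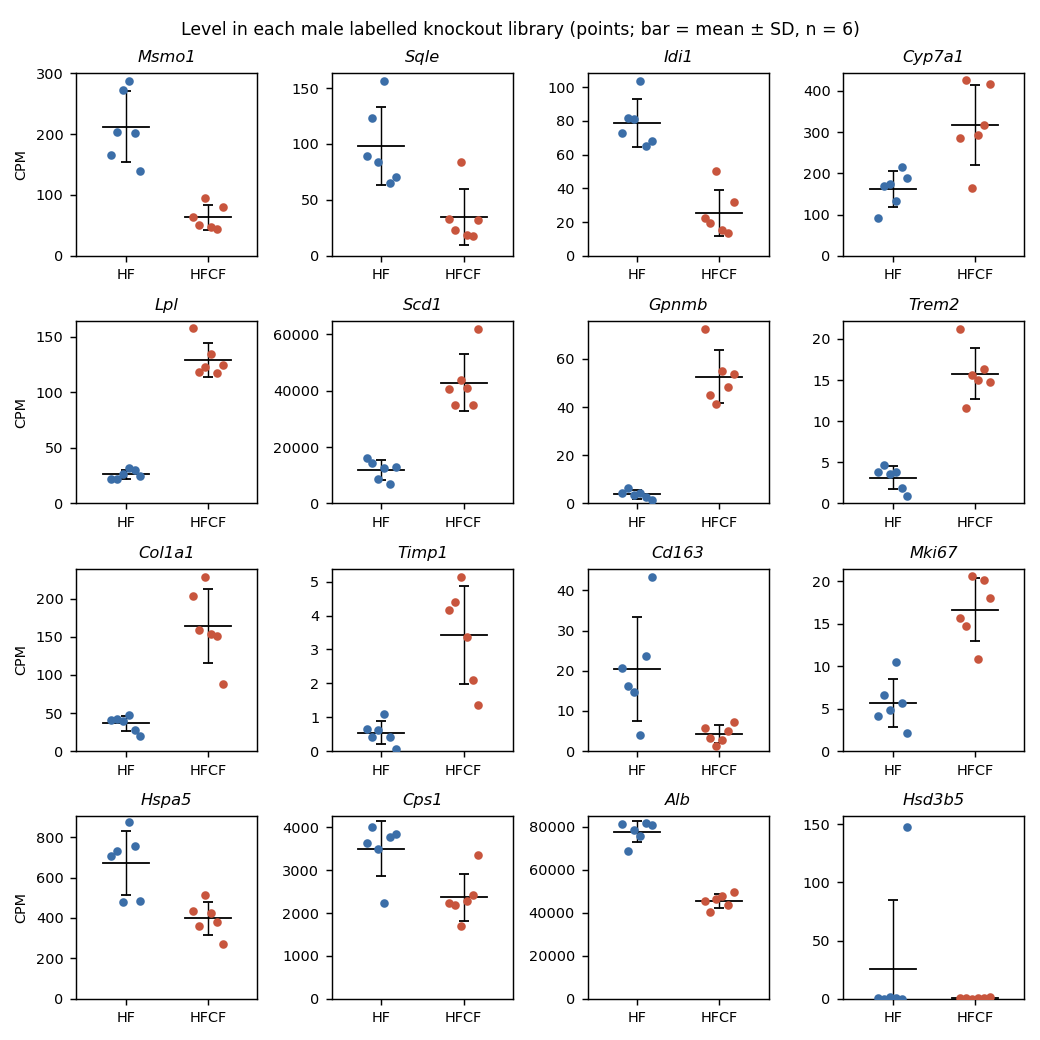
CPM of 16 genes in each of the 6 HF and 6 HFCF male labelled knockout libraries, with the mean and SD as bars on linear axes that start at 0. Msmo1, Idi1, Lpl, Scd1, Gpnmb, Trem2, Col1a1, Timp1, Mki67 and Alb show no overlap between the diets, and the Hsd3b5 panel shows the single HF library at 148 CPM.

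Of 18 genes of fatty acid synthesis and desaturation, 8 rose and 2 fell. Scd1, the main liver stearoyl-CoA desaturase, lay at 6836, 12750 and 16290 CPM on HF and at 34770, 40750 and 62020 CPM on HFCF. Scd2, its paralog, lay at 10.6, 12.2 and 14.7 CPM on HF and at 56.7, 70.2 and 101 CPM on HFCF. Neither overlapped, and the differences were 1.85 ± 0.201 and 2.57 ± 0.15 (SE; edgeR adjusted p = 7.22e-06 and 1.18e-07). Fasn, the fatty acid synthase, was at 901 ± 236 and 1107 ± 710 CPM and was not called (log2 0.31, edgeR adjusted p = 0.479); without HFCF replicate 6, at 2351 CPM, its difference was −0.03. Elovl6, an elongase, was called higher (132 ± 25.9 and 263 ± 215 CPM, edgeR adjusted p = 0.0341), but without the same library the difference was 0.48, and the call was lost in 6 of 12 fits that left out 1 library. Elovl3, another elongase, fell by 1.23 with no overlap. Among the other desaturase genes of the list, Fads2 rose by 0.34 and Fads1 was not called (−0.04, edgeR adjusted p = 0.787).

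Of 15 genes of fructose and glucose metabolism, 1 rose and 5 fell on the fructose-containing diet. Khk, the ketohexokinase that starts fructose breakdown, was at 655 ± 80.3 CPM on HF and 542 ± 119 on HFCF (log2 −0.26, edgeR adjusted p = 0.0915). Without HFCF replicate 6, at 778 CPM, Khk was called lower (−0.37, edgeR adjusted p = 0.0022). Pck1, the gluconeogenic carboxykinase, fell by 1.21 (SE 0.192, edgeR adjusted p = 0.000156), from 1661 ± 455 to 712 ± 163 CPM. Fbp1, the fructose bisphosphatase of gluconeogenesis, fell by 0.55. G6pdx, the entry to the pentose phosphate pathway, rose by 0.90, but the gene overlaps Ikbkg. With total-count scaling 3 rose and 2 fell.

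Targets of PPARA and genes of fatty acid oxidation were mixed, with 6 of 25 higher and 9 lower. Over all genes tested, 21.6% were called higher and 20% lower. Acaa2, a thiolase of mitochondrial oxidation, fell from 903 ± 62.3 to 637 ± 45.2 CPM (SD, n = 6) with no overlap (log2 −0.50 ± 0.0669, SE; edgeR adjusted p = 4.39e-05). Acadvl, an acyl-CoA dehydrogenase, fell by 0.30, and Cpt1a, which admits fatty acids to mitochondria, was at 710 ± 67.6 and 736 ± 12.3 CPM (edgeR adjusted p = 0.489). Pdk4, which limits glucose oxidation, rose by 1.53, and the thioesterase Acot2 by 1.25. Total-count scaling turned the list's median from −0.07 to 0.13, with 9 higher and 2 lower. That scaling called 5493 of all 14314 genes higher and 966 lower.

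Genes of the lipid droplet and those associated with PPARG rose, although the libraries are labelled as knockouts of its gene. Of 15 tested, 9 rose and 0 fell, with a median log2 of 0.58. Cidec (ENSMUSG00000030278, chromosome 6, 113424634 to 113435760, reverse strand), a protein that fuses lipid droplets, lay at 4.56, 5.05 and 6.52 CPM on HF and at 11.5, 26.7 and 44.1 CPM on HFCF. Osbpl3 (ENSMUSG00000029822, chromosome 6, 50293330 to 50456201, reverse strand), an oxysterol-binding protein, lay at 7.69, 10.8 and 23.99 CPM on HF and at 67.1, 83.2 and 108 CPM on HFCF. In both genes the diets did not overlap, with differences of 2.38 ± 0.266 and 2.72 ± 0.218 (SE; edgeR adjusted p = 8.93e-06 and 7.61e-07).

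Aqp7 (ENSMUSG00000028427, chromosome 4, 41033074 to 41048139, reverse strand), a channel for water and glycerol, was almost absent on HF, with 7 reads over the 6 libraries, and had 245 reads over the 6 HFCF libraries. That is 0 to 0.128 CPM against 1.58 to 2.99 CPM. The fitted difference of 4.73 ± 0.36 (SE; edgeR adjusted p = 6.36e-07) depends on the prior count at such low levels. Lpl (ENSMUSG00000015568, chromosome 8, 68880491 to 68907448, forward strand), the lipase that releases fatty acids from lipoproteins, lay at 21.9, 25.7 and 32.2 CPM on HF and at 117, 124 and 158 CPM on HFCF, a difference of 2.31 ± 0.105 (SE; edgeR adjusted p = 5.59e-09). Clstn3 rose by 0.94, Plin4 by 0.81, the fatty acid transporter gene Cd36 by 0.58 and the droplet coat gene Plin2 by 0.39. Fabp4, a fatty acid carrier of fat cells and macrophages, was at 16.7 ± 6.00 and 22.3 ± 3.70 CPM and was not called. Cidea, Plin1 and Cfd were too low to be tested.

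Whether the diet effect differed from that of the male controls was tested as the interaction of diet and genotype. That test called 235 of 15096 genes (1.56%), 149 with a more positive diet effect in the labelled knockouts (0.987%) and 86 with a more negative one (0.57%). This count depended on single libraries, with 119 calls without HF control replicate 3 and 412 without HF control replicate 2. Of the 15 droplet and PPARG-associated genes, 5 were among the 149 and 0 among the 86. For Cidec, the controls lay at 115 to 160 CPM on HF and 156 to 174 on HFCF. On the log2 scale its diet effect was 2.10 larger in the labelled knockouts (edgeR adjusted p = 0.000236). For Osbpl3, the controls lay at 80.6 to 114 and 75.3 to 123 CPM, and the diet effect was 2.61 larger on that scale (edgeR adjusted p = 2.4e-06). For Aqp7 it was 3.78 larger on that scale (edgeR adjusted p = 0.00742), with controls at 1.65 to 5.08 and 0.87 to 9.25 CPM. These values compare ratios of HFCF over HF and not the CPM gained, and the labelled knockouts started from lower HF levels.

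On HF, each labelled knockout library was below each control library for these 3 genes. On HFCF the labelled knockouts overlapped the range of the controls for Osbpl3. For Aqp7 they overlapped it only through HFCF control replicate 1, at 0.87 CPM, since the other 5 controls lay between 5.81 and 9.25 CPM. For Cidec their highest library, 44.1 CPM, was below the lowest control, 156 CPM. Lpl showed no such pattern: its diet effect was 2.30 in the controls, and the interaction was 0.01 (edgeR adjusted p = 0.992). Scd2 rose in both genotypes, by log2 1.02 more in the labelled knockouts (edgeR adjusted p = 0.0072).

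**Figure D4:**
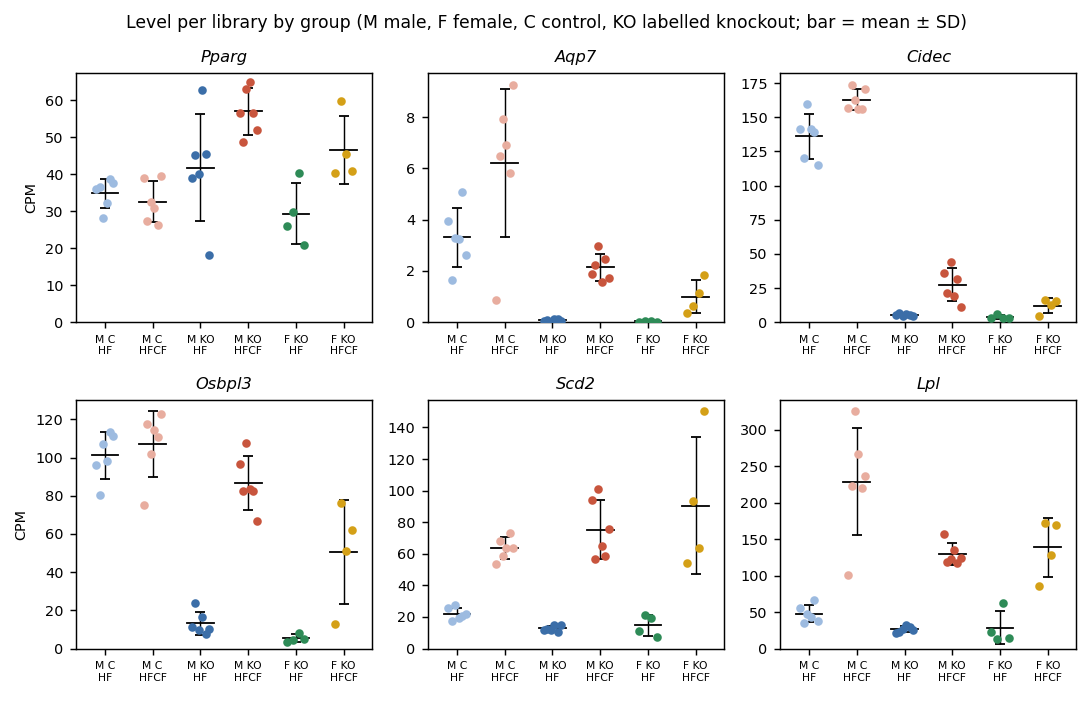
CPM of 6 genes in each library of the male controls, male labelled knockouts (6 libraries per group) and female labelled knockouts (4 libraries per group) on HF and HFCF, with the mean and SD as bars. Cidec, Osbpl3 and Aqp7 are low in the labelled knockouts on HF and higher on HFCF, while Lpl rises in the 3 pairs of groups.

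Extracellular matrix genes rose almost throughout: of 36 tested, 33 were higher and 2 lower, with a median log2 of 1.30. Col1a1, a chain of the main fibrillar collagen of scars, lay at 19.7, 40.3 and 47.0 CPM on HF and at 87.9, 157 and 229 CPM on HFCF, with no overlap (2.18 ± 0.224, SE; edgeR adjusted p = 4.81e-06). Col3a1 rose by 1.86, the microfibril gene Fbn1 by 1.98 and the collagen cross-linker gene Lox by 2.36. Timp1, an inhibitor of matrix proteases, rose from 0.543 ± 0.341 to 3.42 ± 1.45 CPM, with 51 reads over the HF group, and it overlaps Syn1. Mmp12, a macrophage elastase, rose from 1.38 to 7.14 CPM over the HF libraries to 23.1 to 44.7 CPM over the HFCF libraries (3.44 ± 0.286, SE; edgeR adjusted p = 9.03e-07). The genes that fell were Col18a1 and Fn1, by 0.37 and 0.33, and with total-count scaling 1 of them was still called.

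Markers of stellate cells and myofibroblasts were higher for 10 of 14 and lower for 0. Pdgfrb, the receptor for platelet-derived growth factor on these cells, rose from 22.0 ± 3.58 to 43.5 ± 7.79 CPM (edgeR adjusted p = 3.56e-05). Acta2, the smooth muscle actin of myofibroblasts, rose by 0.79 (edgeR adjusted p = 0.0116) with overlapping ranges, because HFCF replicate 2 stayed at 2.42 CPM. Tgfb1, the fibrogenic cytokine gene, rose by 0.89. The summed level of the 14 markers was 266 to 365 CPM on HF and 352 to 478 CPM on HFCF. Lrat, which stores vitamin A in quiescent stellate cells, was among the 4 not called.

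Markers of lipid-associated macrophages gave the highest median of the lists, 1.94, and 13 of 13 rose. Gpnmb, a lysosomal glycoprotein of lipid-laden macrophages, lay at 1.31, 3.96 and 6.59 CPM on HF and at 41.0, 50.9 and 72.2 CPM on HFCF (3.79 ± 0.239, SE; edgeR adjusted p = 1.49e-07). Trem2, a lipid-sensing receptor, lay at 0.917, 3.70 and 4.72 CPM on HF and at 11.7, 15.3 and 21.2 CPM on HFCF (2.34 ± 0.255, SE; edgeR adjusted p = 7.22e-06). In both, every HFCF library was above every HF library. Spp1, which encodes osteopontin, rose from 76.2 ± 28.4 to 362 ± 145 CPM, and Itgax, which encodes CD11c, from 4.35 ± 1.64 to 20.2 ± 4.47 CPM. The summed level of the 13 markers was 125 to 238 CPM on HF and 518 to 1023 CPM on HFCF.

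Markers of resident Kupffer cells did not move together. Of 11 tested, 3 rose and 4 fell, where 21.6% of all genes tested were called higher and 20% lower. Clec4f, which marks Kupffer cells, was at 131 ± 26.6 and 144 ± 20.6 CPM (edgeR adjusted p = 0.422), and Cd5l rose by 0.94 with no overlap. The scavenger receptor gene Cd163 fell by 2.28 ± 0.445 (SE; edgeR adjusted p = 0.00086), from 4.10, 18.4 and 43.4 CPM to 1.27, 4.14 and 7.32 CPM. Timd4, of long-lived Kupffer cells, and Marco were called lower, but the call of Timd4 was lost in 7 of 12 fits that left out 1 library and that of Marco in 5. With total-count scaling 7 rose and 2 fell, where that scaling called 5493 of all 14314 genes higher and 966 lower.

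Monocyte and inflammatory genes rose for 14 of 20 and fell for 0. Ccr2, the receptor of recruited monocytes, lay at 2.29, 4.50 and 9.23 CPM on HF and at 13.6, 17.2 and 26.0 CPM on HFCF, without overlap (1.90 ± 0.237, SE; edgeR adjusted p = 2.29e-05). Its ligand gene Ccl2 rose by 1.82, with HF replicate 4 inside the HFCF range, and Tnf by 1.71. Cxcl1, Cxcl9 and Cxcl10 were not called. Among the class II antigen presentation genes, H2-Ab1 rose, at 37.9 to 88.5 CPM on HF and 144 to 220 CPM on HFCF (1.52 ± 0.165, SE; edgeR adjusted p = 7.22e-06) and its chaperone gene Cd74 rose by 1.46. Of the 11 listed genes 7 rose and 0 fell, and H2-K1, H2-D1, B2m and Tap1 of the class I pathway were the 4 not called.

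Interferon-stimulated genes were largely without a call: 2 of 21 rose, Ifit2 by 1.24 and Oasl2 by 0.92, and 0 fell. Isg15 was at 8.91 to 53.6 CPM on HF, where HF replicate 4 was the highest, and at 11.2 to 20.5 CPM on HFCF. Without HF replicate 4, 6 of 21 were called higher, and without HF replicate 6, 1 was called lower. Of the T, B and NK cell markers, 4 of 13 rose, Lck, Cd8a and Nkg7 among them, and 0 fell. The other 9 were not called, and 21.6% of all genes tested were called higher. Cd8a was low, at 0.708 ± 0.253 and 1.42 ± 0.464 CPM, and between 2 and 4 of 13 were called higher when 1 library was left out, with 1 called lower without HF replicate 5.

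Biliary and progenitor markers rose for 8 of 9, with a median of 1.38. Sox9, a transcription factor of bile duct and progenitor cells, lay at 4.75, 8.66 and 11.1 CPM on HF and at 11.3, 18.6 and 26.8 CPM on HFCF (1.21 ± 0.217, SE; edgeR adjusted p = 0.000422). Krt19, a keratin of bile ducts, rose by 1.38 with overlap, and Epcam by 1.75. Endothelial markers rose for 5 of 15 and 10 were not called, where 21.6% of all genes tested were called higher. Cd34 rose by 1.33 and Stab2, of sinusoidal endothelium, by 0.36. With total-count scaling 10 of the 15 were called higher, where that scaling called 5493 of all 14314 genes higher.

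Cell cycle genes rose for 20 of 27 and fell for 0. Mki67, a marker of proliferating cells, lay at 2.10, 5.29 and 10.5 CPM on HF and at 10.9, 16.9 and 20.6 CPM on HFCF (1.57 ± 0.264, SE; edgeR adjusted p = 0.000268), with no overlap. Top2a, the topoisomerase of dividing cells, rose by 1.39, Ccnd1, which encodes cyclin D1, by 1.58 and the cell cycle inhibitor gene Cdkn1a by 1.48. Pcna, Mcm7, Rrm2 and Tyms, of DNA replication, were among the 7 not called. Bulk counts do not say which cells these transcripts came from.

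Hepatocyte transcripts were lower. Of 13 hepatocyte markers 12 fell and 0 rose, with a median log2 of −0.60. Alb, which encodes albumin, lay at 68600, 79630 and 81820 CPM on HF and at 40220, 45960 and 49860 CPM on HFCF, so each HFCF library was below each HF library (−0.76 ± 0.085, SE; edgeR adjusted p = 8.72e-06). Ttr, which encodes transthyretin, fell by 0.76. Hnf4a, the transcription factor of hepatocyte identity, fell by 0.29 (−0.09 and not called with total-count scaling). The summed level of the list was 99410 to 114400 CPM on HF and 60320 to 70890 CPM on HFCF. The part of this change of hepatocyte against other markers in the results given here was not tested.

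Genes of the urea cycle and of amino acid breakdown fell for 22 of 25 and rose for 0, with a median of −0.70. Hal, the histidine ammonia lyase, lay at 279, 461 and 571 CPM on HF and at 84.0, 142 and 228 CPM on HFCF (−1.57 ± 0.2, SE; edgeR adjusted p = 2.65e-05). Gls2, the liver glutaminase, fell by 1.11 with no overlap. Cps1, the first enzyme of the urea cycle, fell by 0.56 with overlap, since HF replicate 4 was at 2242 CPM and HFCF replicate 6 at 3353 CPM. With total-count scaling 21 of 25 were called lower.

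Oxidative phosphorylation genes were lower by small amounts under the main scaling, with 33 of 38 called lower and a median of −0.29. This rested on the scaling: with total counts 3 of 38 were called lower, with a median of −0.10. Ndufs3, a subunit of complex I, was at 95.9 ± 7.84 and 72.4 ± 6.59 CPM (−0.40, edgeR adjusted p = 0.000371). Apolipoprotein and VLDL assembly genes fell for 10 of 14, with Apoa1, the main protein of HDL, at 9188 ± 685 and 5994 ± 543 CPM (−0.61, edgeR adjusted p = 3.5e-05). Apoa4, which is raised in fatty liver, was the 1 that rose, by 1.32, and Apob was not called. With total-count scaling 6 of the 14 fell.

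Xenobiotic cytochrome P450 genes fell for 10 of 17 and rose for 2. Cyp2e1, the ethanol-inducible P450, lay at 5512, 7101 and 8057 CPM on HF and at 2607, 3992 and 4212 CPM on HFCF (−0.91 ± 0.136, SE; edgeR adjusted p = 9.22e-05). Cyp3a11, a target of the pregnane X receptor, rose from 815 ± 212 to 1578 ± 289 CPM (0.96, edgeR adjusted p = 0.000394). Both were without overlap. The Cyp2c genes have near-identical copies, so their counts are uncertain.

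Of 18 genes of endoplasmic reticulum stress and the integrated stress response, 12 fell and 2 rose. Hspa5, the main chaperone (BiP), lay at 481, 719 and 874 CPM on HF and at 270, 402 and 513 CPM on HFCF (−0.75 ± 0.162, SE; edgeR adjusted p = 0.00178), with overlapping ranges. Creld2 fell by 0.90 and Hyou1 by 0.86. Ddit3, which encodes CHOP, was at 8.22 ± 2.09 and 7.57 ± 0.342 CPM (edgeR adjusted p = 0.547), but it overlaps Mars, whose counts are higher. Atf3, a stress-induced transcription factor, rose by 1.66 with no overlap. With total-count scaling 8 fell and 2 rose.

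Targets of NRF2 rose for 7 of 15 and fell for 1. The glutathione transferase genes Gstm3 and Gsta1 rose by 1.87 and 2.17, with Gstm3 at 47.7 to 160 CPM on HF and 218 to 419 CPM on HFCF (SE 0.242, edgeR adjusted p = 3.1e-05). Both have close paralogs. Nqo1, a much used NRF2 target, was at 11.1 ± 3.27 and 14.2 ± 2.76 CPM and was not called, nor was Gclc. Acute phase genes were split, with 3 of 19 higher (Lcn2, Saa1 and Saa2) and 8 lower. Lcn2, which encodes a lipocalin, lay at 8.78, 44.8 and 64.1 CPM on HF and at 76.5, 139 and 221 CPM on HFCF (1.78 ± 0.36, SE; edgeR adjusted p = 0.00111).

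Circadian clock genes fell for 14 of 18 and rose for 2, Arntl and Npas2. Per2, a repressor of the clock, lay at 40.5, 52.0 and 65.3 CPM on HF and at 26.3, 30.1 and 39.0 CPM on HFCF (−0.68 ± 0.112, SE; edgeR adjusted p = 0.000217). Ciart, another repressor, fell by 1.70 with overlap. Arntl, an activator, rose by 0.64, a call lost without HFCF replicate 3. The hour of tissue collection is not given in the sources used here, and its part in these values was not tested. With total-count scaling 7 fell and 4 rose.

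Lysosomal genes were mostly not called: 8 of 24 rose and 2 fell, where 21.6% of all genes tested were called higher and 20% lower. Ctss, a cathepsin of macrophages, rose by 1.09 and Lipa, the acid lipase that frees cholesterol from esters, by 0.43. With total-count scaling 15 rose and 2 fell, where that scaling called 5493 of all 14314 genes higher and 966 lower. Genes of the growth hormone axis were mixed, with 1 of 13 higher and 3 lower. Igf1 fell from 580 ± 85.5 to 383 ± 44.3 CPM (−0.59, edgeR adjusted p = 0.00026) and Igfals by 1.10, both without overlap, and Socs2 was not called.

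Among male-biased genes 1 of 12 rose and 4 fell, and without HF replicate 6 the counts were 4 and 2. Hsd3b5, a steroid dehydrogenase of male liver, was called lower by 5.21 through that library alone; without it the difference was 0.03. Cyp4a12b rose by 3.46 ± 0.508 (SE; edgeR adjusted p = 8.52e-05), from 0.967, 1.93 and 15.1 CPM to 25.8, 40.9 and 67.1 CPM, and HF replicate 6 was again the highest of the HF group. Of 8 female-biased genes tested 5 fell and 0 rose, also when any 1 library was left out. Cyp2b9, a P450 of female liver, fell by 1.46, with 121 to 367 CPM on HF and 60.2 to 137 CPM on HFCF, which overlapped, and Cyp2b13 fell by 2.38, with HF replicate 6 the lowest of the 12 at 1.18 CPM. These P450 genes have close paralogs.

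Blood cell markers fell for 5 of 6, but haemoglobin was high in HF replicates 3, 4 and 5 alone. Hba-a1 was at 135 ± 110 CPM on HF and 48.7 ± 12.1 on HFCF, and its call and that of Hbb-bs were lost without HF replicate 3 or HF replicate 5. Markers of the pancreas summed to at most 0.507 CPM, and 0 were tested. Of the adipose tissue markers, Plin1, Cfd and Retn were too low to be tested.

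Means under 1 CPM and symbols of predicted genes were left out of the rankings that follow. Beyond the lists, the genes that rose most with no overlap of the groups were, after Aqp7, Ly6d (4.37), Spink1 (4.28), Shc2 (4.16) and Insyn1 (3.94). Ly6d, a surface protein of the Ly6 family, lay at 0.852, 1.98 and 5.52 CPM on HF and at 28.8, 50.6 and 67.4 CPM on HFCF. Spink1, a trypsin inhibitor, had 10 reads over the 6 HF libraries and 251 over the 6 HFCF libraries, and Insyn1 had 18 and 347, so their fitted values depend on the prior count. The receptor tyrosine kinase gene Ephb2 rose by 3.44, from 0.459 to 8.53 CPM over the HF libraries to 23.5 to 60.5 CPM over the HFCF libraries.

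Under the same limits, the genes that fell most with no overlap of the groups were Serpina1e (−3.02), Enho (−2.82) and Cela1 (−2.04). Serpina1e, one of several near-identical alpha-1-antitrypsin genes, lay at 94.6, 250 and 1097 CPM on HF, with HF replicate 6 the highest, and at 23.8, 43.6 and 67.1 CPM on HFCF. Enho, which encodes the secreted peptide adropin, lay at 6.86, 9.99 and 16.8 CPM on HF and at 1.26, 1.69 and 1.92 CPM on HFCF (SE 0.223, edgeR adjusted p = 7.61e-07). Slc22a7, an organic anion transporter of hepatocytes, fell by 1.79 and the retinol dehydrogenase gene Rdh16f2 by 1.73.

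The diet effect of the male controls, measured on other libraries, called 3225 of 14475 genes (22.3%), 1877 higher (13%) and 1348 lower (9.31%). Without the HFCF control replicate 1 it called 5429. Of the 5916 genes called in the labelled knockouts and tested in both, 91.0% had the same sign in the controls, against 75.8% of all genes tested in both. Both comparisons called 2349 genes, which is 39.7% of the calls of the labelled knockouts and 74.1% of those of the controls. Cholesterol synthesis genes fell for 20 of 20 in the controls also, with a median of −1.36. Lipid-associated macrophage markers rose for 12 of 13, extracellular matrix genes for 30 of 36 and biliary markers for 9 of 9. Endoplasmic reticulum stress genes rose for 2 and fell for 1 of 18 in the controls, where Hspa5 was at 527 and 513 CPM, but the interaction was not called for Hspa5 (−0.735, edgeR adjusted p = 0.152), so a difference between genotypes was not shown.

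Outside the droplet list the interaction was called for Ly6d, Tgfbr2, Gprc5b, Cdk6 and Ephb2, all more positive in the labelled knockouts. Tgfbr2, a receptor for TGF-beta, lay at 30.6, 38.1 and 46.6 CPM on HF and at 84.2, 92.1 and 97.1 CPM on HFCF in the labelled knockouts, while the control means were 76.7 and 93.4 CPM, and the difference of the diet effects was 0.94 (edgeR adjusted p = 0.000236). Gprc5b, an orphan receptor, rose by 0.93 in the labelled knockouts and fell by 1.24 in the controls. The more negative side included Cela1 and Serpina11, with differences of −1.96 and −0.99 (edgeR adjusted p = 0.000236 and 0.000105). Of 145 genes with a more positive effect and tested in both diet comparisons, 130 rose in the labelled knockouts. In the controls 17 rose, 30 fell and 98 were not called. Over all genes tested, 21.6% rose in the labelled knockouts, and 13% rose and 9.31% fell in the controls. The 145 were chosen by the difference of these 2 diet effects in the same libraries, so such counts follow in part from the choice. Of 26 interactions among the genes chosen by the naming rule given below, 19 were called in each of 24 fits that left out 1 library.

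**Figure D5:**
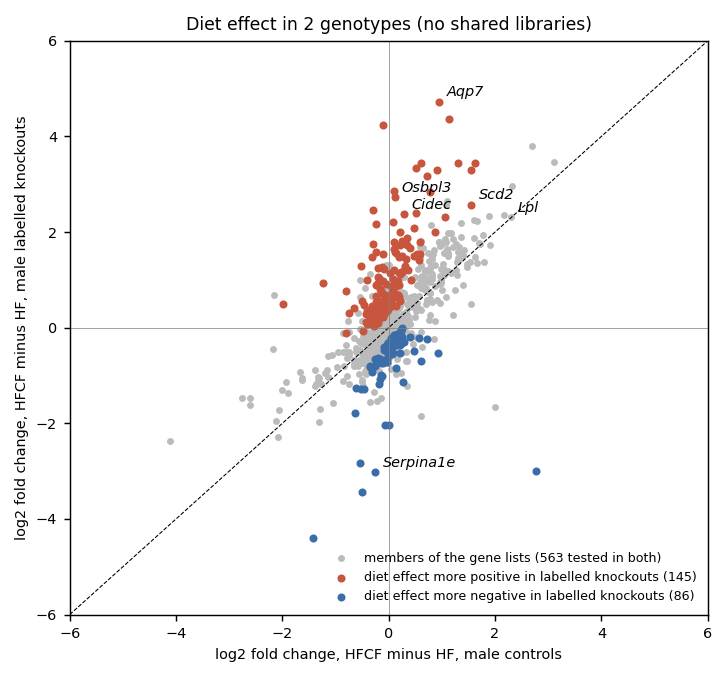
Log2 difference between HFCF and HF in male controls (horizontal) and male labelled knockouts (vertical), for 563 members of the gene lists (grey) and the genes with a called interaction (145 red, 86 blue), with the line of equality dashed. Aqp7, Osbpl3 and Cidec lie far above the line and Lpl lies on it; the coloured genes were chosen by their distance from it.

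In the female labelled knockouts the diet effect called 2118 of 14650 genes (14.5%), 1237 higher (8.44%) and 881 lower (6.01%). It called 4402 without the female HFCF replicate 1 and 866 without the female HFCF replicate 4. Of the 5886 genes called in males and tested in both, 89.1% had the same sign in females, against 74.4% of all genes tested in both. Osbpl3 rose by 3.25, Cidec by 1.73, Lpl by 2.29 and Scd2 by 2.63 in females, each called, and Gpnmb by 5.53. The interaction of diet and sex called 2 of 15400 genes (0.013%) with edgeR, 1 in each direction (0.00649% each), with 1829 at an unadjusted edgeR p under 0.05. DESeq2's Wald test called 172. The sexes were handled as separate cohorts, so sex and cohort cannot be told apart. The females had 4 livers per diet and a wider spread between livers. Its estimate, edgeR's biological coefficient of variation, was 0.211 in females and 0.143 in males. Cyp7a1 was at log2 0.97 in males and −1.15 in females (edgeR adjusted p = 0.0501).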

How the data were processed

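RNA sequencing of whole liver was deposited by the authors as raw read counts per gene, per the file headers. The submitters' processing notes name STAR 2.6.1, HTSeq 0.6.1, DESeq2 2 and the mouse build GRCm38. The libraries were not strand specific, per the labels' protocols.

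The 12 libraries of the main comparison came from 1 table of 25558 genes. The controls and the female libraries were joined to them, giving 32 libraries and 28108 genes, and 0 read-count columns were without a sample. Between 15338182 and 22072832 reads per library fell on genes. Counts of different livers were treated as replicates. CPM values used TMM scaling over the 32 libraries. Genes passing edgeR's filter on low counts were tested with its quasi-likelihood test (edgeR 4.0.16, limma 3.58.1, R 4.3.3) without a replicate block, with Benjamini-Hochberg adjustment over all genes tested and a threshold of 0.05. The genotype and sex comparisons used the interaction term.

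The replicate numbers did not pair the livers: deviations of same-numbered libraries correlated at −0.154 to 0.0459. Alternatives were DESeq2 1.42.0 (Wald test, size factors), a replicate block, other filters, a fold threshold, a fit of the 4 male groups and leaving out each library. Total-count scaling was added after seeing the data.

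Named genes were Pparg, fixed anchors of each list, the called members with the largest changes, and, with a mean of at least 1 CPM, the 10 largest rises and 10 largest falls without overlap and the 6 strongest interactions in each direction. Symbols of predicted genes (Gm numbers, Rik, -ps and clone names) were left out of these rises, falls and interactions. Some genes chosen by this rule are not reported here. The comparison, lists and members were chosen with earlier results of these data known. Tested on simulated data for the diet effect (14122 genes), 82.5% of genes changed by an absolute log2 of 1 and 97.8% of those changed by 2 were recovered, and 2.33% of calls were on unchanged genes. For the genotype interaction (14936 genes) these were 72.7%, 88.8% and 5.36%. Few genes were changed in these simulations, with rises and falls in balance. They were 97 by 1 and 90 by 2 for the diet effect, and 99 and 98 for the interaction. The real diet comparison called 41.7% of genes. A change of so many genes was not simulated, so these rates do not cover it.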

Additional observations from a re-analysis of the deposited data

Results flagged for a closer look

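Among 338 gene and group values checked in the male labelled knockouts, 38 had a library set apart from the other 5 of its group. For normally distributed values about 1 in 20, or 16.9, would be. The rule was applied to CPM without a log, and most of the 38 were on the highest side, so 16.9 may not be the chance rate here. HF replicate 4 was set apart for 9 genes: it was highest for Ccl2 (3.591 CPM), Ccnb1 (2.693), Ddit3 (12.25), Gsta1 (10.77), Ifit1 (66.05), Isg15 (53.61), Mmp13 (2.18) and Socs2 (37.38 CPM), and lowest for Cps1 (2242 CPM). HF replicate 6 was highest for Cyp2c54 (302.3 CPM), Cyp4a12b (15.07), Hsd3b5 (147.6), Serpina1e (1097) and Slco1a1 (586.7 CPM). HF replicate 5 was highest for Hectd2os (51.3 CPM) and Marco (45.07 CPM), and HF replicate 2 lowest for Serpina11 (29.88 CPM) and Soat1 (7.973 CPM).

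On HFCF, replicate 6 was highest for Elovl6 (681.7 CPM), Fbp1 (1152), Gls2 (341.2), Got1 (232.1), Hba-a1 (72.28), Khk (777.9), Ndufs3 (85.51), Scd1 (62020) and Slc10a1 (520.1 CPM), and lowest for Pdgfrb (28.79 CPM). Replicate 3 was highest for Cldn4 (3.862 CPM), Cx3cr1 (28.27), H2-Ab1 (220.1), Pdk4 (47.49), Socs2 (43.8) and Sqle (83.96 CPM). Replicate 1 was highest for Cd5l (388 CPM). Replicate 2 was highest for Ifit1 (39.49 CPM) and lowest for Acta2 (2.421 CPM) and Itih4 (1596 CPM).

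The diet effect differed between labelled knockouts and controls for 26 of the genes chosen by the naming rule above, by the edgeR interaction term. On the log2 scale it was more positive in the labelled knockouts for Aqp7 (3.78), Ly6d (3.25), Spink1 (3.04), Ephb2 (2.84), Osbpl3 (2.61), Gsta1 (2.41), Gprc5b (2.18), Cidec (2.1), Mmp12 (1.83), Pdk4 (1.63), Gstm3 (1.53), Scd2 (1.02), Tgfbr2 (0.94), Cdk6 (0.68), Lipa (0.4) and Cpt1a (0.35). It was more negative for Serpina1e (−2.78), Enho (−2.28), Cela1 (−1.96), Slc22a7 (−1.16), Serpina11 (−0.99), Nmral1 (−0.96), Serpina1c (−0.82), Hspb8 (−0.63), Lsm6 (−0.54) and Arhgef10l (−0.52). Some of these calls depended on single libraries. Among 24 fits that left out 1 library, the call was kept in 6 for Serpina1c, 8 for Cpt1a, 9 for Pdk4, 16 for Lipa and 22 for Mmp12. Of genes given above but not chosen by the rule, Acot2 (1.44), Clstn3 (1.14), Plin4 (0.99) and Fads2 (0.65) also had a called interaction, more positive in the labelled knockouts.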

How the results depend on the processing

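Of the named genes' values under the alternatives, 3249 kept their direction and side of the threshold, 158 lost the call, 13 gained one and 20 changed sign. In the male labelled knockouts a fold threshold of 2 left 1265 genes (1101 higher, 164 lower), and total-count scaling, chosen after seeing the data, gave 5493 higher and 966 lower. It turned the differences of Cyp8b1 (0.02981), Apob (0.07947), Ddit3 (0.09041), Ndufs1 (0.06024) and Cox5a (0.01424), through its shift of all genes. Without 1 library, differences changed sign for Fasn (−0.03299 to 0.4576), Cd79a (−0.09771 to 0.2557), Ifit1 (−0.7282 to 0.03888), Ddit3 (−0.1689 to 0.03819), Gclc (−0.04091 to 0.08033), Hsd3b5 (−5.489 to 0.03119) and Socs2 (−0.09229 to 0.5797). Counts of calls without 1 library were 2217 to 5429 in the controls and 866 to 4402 in the females, the highest without HFCF replicate 1 of each. The genotype interaction gave 610 calls with DESeq2's Wald test (337 positive, 273 negative), 75 past a fold of 2 (64 and 11), 256 positive and 45 negative with total-count scaling, 37 negative without a filter, and 119 to 412 without 1 library (92 to 241 positive, 24 to 171 negative). The sex interaction gave 172 calls with the Wald test and 0 to 43 without 1 library. The replicate numbers are only names here. With the replicate block, calls were 5401 in the male labelled knockouts (5293 shared with the fit without it), 2511 in the controls, 1180 in the females, 127 for the genotype interaction (93 positive, 34 negative) and 26 for the sex interaction. Unless stated, the cause was not tested. Genes under the low-count filter were not tested, so a change in them was not detectable at this depth.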
